A study of Homo sapiens with 18 samples.

Results

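The integrated stress response and the amino acid response were followed through 10 genes, DDIT3, CEBPB, NUPR1, TRIB3, ASNS, PSAT1, PHGDH, CHAC1, DNAJB9 and HSPA5, taken from the 18377 genes that the arrays measured through a probe set carrying a single gene symbol. Each of the 10 symbols had 1 such probe set, and PHGDH also shared a second probe set with another symbol, which was not used. The cells were A549, derived from a human lung tumour of the non-small cell type. They were transfected with siRNA against the atypical protein kinases C, PKCiota together with PKCzeta (siPKCiz), or with a control siRNA (siControl). All cultures were grown in 10% serum and then serum starved. The ligand groups of each arm received 250 pM TGFβ for 1 h, were washed, and stayed in 0.2% serum for 7 h or 23 h more, so that RNA was taken at 8 h or at 24 h. The 6 groups were siPKCiz untreated, siPKCiz at 8 h, siPKCiz at 24 h, siControl untreated, siControl at 8 h and siControl at 24 h, each with 3 biological replicates, which gave 18 whole-transcript arrays. No time is attached to the untreated arrays in the labels. Against them, TGFβ cannot be told apart from the wash and the 7 h or 23 h more in 0.2% serum. Both isoforms were silenced together in a single cell line, so the arms cannot be assigned to one isoform, and the siRNA sequences are not given in the sources used here.

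In the integrated stress response, kinases that sense amino acid shortage, unfolded protein in the endoplasmic reticulum (ER), heme shortage or viral RNA phosphorylate the initiation factor eIF2. General translation falls, while the mRNA of the transcription factor ATF4 is translated better. ATF4 then acts with C/EBP partners on genes for amino acid synthesis, amino acid import and tRNA charging, and on DDIT3 (CHOP), TRIB3, NUPR1 and CHAC1, while the ER chaperones DNAJB9 and HSPA5 answer mainly to the ATF6 and IRE1 branches of the unfolded protein response. In lung cancer cells the serine synthesis enzymes of this program have been studied for their part in growth.

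The arrays of replicate 1 stood apart. In 6 of 6 groups replicates 2 and 3 were the most alike of the 3 pairs, with correlations across genes from 0.992 to 0.998 over all pairs. Among the 60 combinations of a stress gene and a group, replicate 1 lay outside the interval between replicates 2 and 3 in 53, above it in 26 and below it in 27. The main results below are therefore also given without replicate 1, and for the other genes named the value without it stands where a call was lost or the change moved by over 1.5 times. For these other genes no values without replicate 2 or 3 are given. Those fits kept only 9 and 5 of the 24 calls of the stress genes. Calls of the other genes have therefore faced a lighter check and should not be read as firmer. A change is the difference of mean log2 intensity, with its standard error from a limma fit over all 18 arrays, and "rose" or "fell" is written where the p adjusted over all 18377 genes (Benjamini-Hochberg) was below 0.05. The p-values measure only the spread between these arrays. Replicate 1 was singled out from these same values, and leaving it out keeps the most alike arrays of each group. Standard errors and adjusted p without replicate 1 are therefore likely too small, and calls made only in that fit are weaker than their adjusted p. The silenced genes checked the labels: PRKCI fell by 2.24 ± 0.05 and PRKCZ fell by 1.07 ± 0.14 on the log2 scale as the mean of the 3 conditions (-2.19 and -1.45 without replicate 1). Of 11 markers of A549 and lung epithelium, KRT7, KRT8, KRT18, ALDH1A1 and AKR1B10 were bright, with lowest intensities of 6842, 6346, 2504, 11533 and 5936, whereas SFTPB, SFTPC and NKX2-1 stayed below the array median on every array. Of 5 leukocyte markers 4 lay below the array median in every group, PTPRC between 46.1 and 55.6 and CD14 between 78.7 and 188, while CD68, a lysosomal protein that is not limited to leukocytes, was between 679 and 1067. Because RNA was taken from whole cultures, fewer cells of a type and less RNA per cell cannot be told apart.

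The mean silencing change was above 0 for 10 of the 10 stress genes, where the median over all genes was -0.0070. The change after 24 h of TGFβ was below 0 for 9 of 10 in siPKCiz cells and 8 of 10 in siControl cells, called or not. The 10 are not separate observations: their correlations over the arrays ran from -0.27 (PHGDH and HSPA5) to 0.93 (DDIT3 and CHAC1). They were also chosen with earlier results of these data known. As the mean of the 3 conditions, DDIT3, CEBPB, NUPR1, ASNS and PSAT1 rose with silencing and none fell, 5 of 10 where 11.8% of all genes rose and 8.17% fell. Without replicate 1, 9 of 10 rose, all but TRIB3, where 18.9% of all genes rose. Of the 5 called with all arrays, CEBPB and NUPR1 stayed called without replicate 2 and without replicate 3. DDIT3, ASNS and PSAT1 were called in neither of these fits. After 24 h of TGFβ, CEBPB, ASNS, PSAT1 and PHGDH fell in siPKCiz cells, 4 of 10 where 6.09% of all genes fell and 4.65% rose. The 4 that fell at 24 h in siControl cells were again CEBPB, ASNS, PSAT1 and PHGDH, where 6.46% of all genes fell and 5.85% rose. In siControl cells ASNS was no longer called without replicate 1 (-0.21, adjusted p = 0.143). Both time courses are set against the untreated arrays of their own arm, and these same untreated arrays also enter the silencing comparison.

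**Figure D1:**
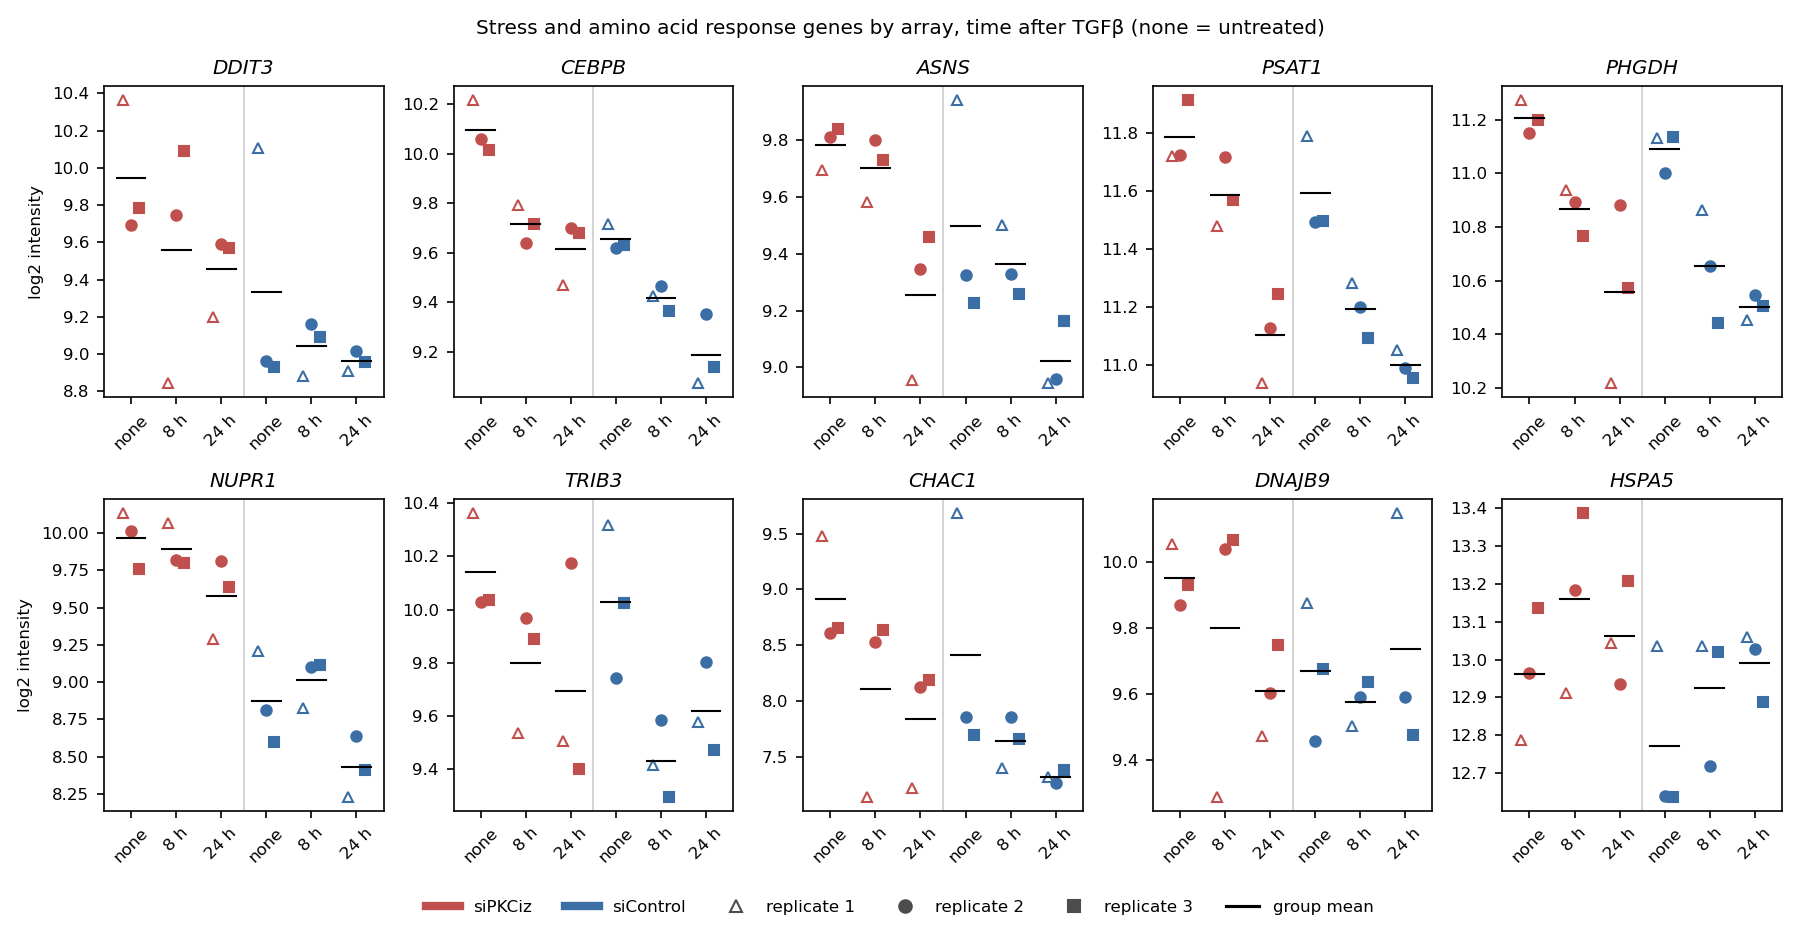
Log2 intensity (y axis) of the 10 genes on each array, with siPKCiz (red) left of siControl (blue) and, within each arm, untreated cells, 8 h and 24 h after TGFβ. Triangles, circles and squares are replicates 1, 2 and 3, and lines are group means. The NUPR1 panel shows 9 siPKCiz points that overlap siControl in none of the 3 conditions, and the DDIT3 and CHAC1 panels show replicate 1 of both untreated groups far above replicates 2 and 3.

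NUPR1, a small stress-induced chromatin protein, had the largest silencing effect of the 10. In untreated siPKCiz cells its intensity was 1123, 1034 and 868, against 592, 451 and 387 in untreated siControl cells. At 8 h it was 1076, 903 and 893 in siPKCiz cells and 454.5, 550.4 and 555 in siControl cells. At 24 h siPKCiz cells had 627, 899.5 and 796, and siControl cells had 301, 399.6 and 340.5. The lowest siPKCiz array was above the highest siControl array within each condition, a separation that 13.7% of all genes showed in untreated cells, 12.3% at 8 h and 8.73% at 24 h. The change was 1.09 ± 0.16 in untreated cells (adjusted p = 0.000696), 0.88 ± 0.16 at 8 h (adjusted p = 0.00358) and 1.15 ± 0.16 at 24 h (adjusted p = 0.000416), and its mean of 1.04 ± 0.09 is a 2.06-fold higher level (adjusted p = 3.9e-07). These calls stayed when any single array was left out, and without replicate 1 the mean was 1.03 ± 0.06. The mean over the conditions was also called without replicate 2 (1.05) and without replicate 3 (1.05), but the 3 single conditions were not, with adjusted p from 0.0716 to 0.135. Within siControl cells the level at 24 h was below that at 8 h by -0.59 ± 0.16, just short of the threshold (adjusted p = 0.0572), and it was called without replicate 1 (-0.58, adjusted p = 0.00704). In the order of group means, siPKCiz untreated (9.97), 8 h (9.90) and 24 h (9.58) came first and siControl 8 h (9.02), untreated (8.87) and 24 h (8.43) followed. The 1 gap between neighbours in that order without overlapping arrays was the one between the arms.

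CEBPB, the C/EBPβ transcription factor that pairs with ATF4, moved in both directions of the design. Untreated siPKCiz cells had 1189, 1067 and 1035, against 840.1, 787 and 794 in untreated siControl cells. With TGFβ, siPKCiz cells had 887, 798 and 842 at 8 h and 709, 831 and 819.9 at 24 h. The siControl cells had 688, 707 and 659.8 at 8 h and 539, 653 and 564 at 24 h. The siPKCiz arrays lay above the siControl arrays of the same condition in all 3 conditions, and within each arm the TGFβ arrays lay below the untreated ones. Such a separation downwards was seen for 13% of all genes at 8 h and 18.2% at 24 h in siPKCiz cells, and for 12.9% and 13.6% in siControl cells. With silencing CEBPB rose by 0.44 ± 0.09 in untreated cells (adjusted p = 0.00804) and by 0.43 ± 0.09 at 24 h (adjusted p = 0.0104), while the change at 8 h was 0.30 ± 0.09 (adjusted p = 0.0536). The mean of the conditions was 0.39 ± 0.05 (adjusted p = 3.08e-05), a 1.31-fold higher level, and it passed with any single array left out and without replicate 1 (0.37), 2 (0.42) or 3 (0.37). With TGFβ, CEBPB fell by 0.48 ± 0.09 at 24 h in siPKCiz cells (adjusted p = 0.00111) and by 0.47 ± 0.09 in siControl cells (adjusted p = 0.00116), and it fell by 0.38 ± 0.09 at 8 h in siPKCiz cells (adjusted p = 0.0108). At 8 h in siControl cells the change was -0.24 ± 0.09 (adjusted p = 0.0954). The 24 h call in siControl cells was lost without replicate 3 (-0.45). Leaving out replicate 1 kept the 3 TGFβ calls of CEBPB, at -0.36 at 8 h and -0.35 at 24 h in siPKCiz cells and -0.38 at 24 h in siControl cells. The 8 h call in siPKCiz cells was lost without siPKCiz untreated replicate 1 (-0.32) or siPKCiz 8 h replicate 2 (-0.34). It was also lost without replicate number 2 (-0.36) or 3 (-0.42). The silencing call at 24 h was lost without siPKCiz 24 h replicate 2 (0.39), siPKCiz 24 h replicate 3 (0.40) or siControl 24 h replicate 3 (0.40). Without replicate number 2 or 3, neither the 24 h silencing call (0.47 and 0.37) nor the one in untreated cells (0.44 and 0.47) stayed.

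DDIT3, which encodes the pro-apoptotic factor CHOP, and CHAC1, a glutathione-degrading enzyme that ATF4 and CHOP induce, varied most between replicates. DDIT3 had 1318, 827 and 881 in untreated siPKCiz cells, against 1102, 498 and 487 in untreated siControl cells. At 8 h it had 459, 858 and 1091 in siPKCiz cells and 471, 573 and 546 in siControl cells. At 24 h it had 587, 772 and 761 in siPKCiz cells and 480.3, 518 and 498 in siControl cells. Replicates 2 and 3 of siPKCiz were above every siControl array except untreated replicate 1. Replicate 1 of siPKCiz at 8 h was the lowest of the 18 arrays. Group means of DDIT3 were 9.95 untreated, 9.56 at 8 h and 9.45 at 24 h in siPKCiz cells. In siControl cells they were 9.33, 9.05 and 8.96. Without replicate 1 its TGFβ changes were 0.18 at 8 h in both arms. At 24 h they were -0.16 in siPKCiz and 0.04 in siControl cells. No TGFβ change of DDIT3 was called with all arrays or without replicate 1. The silencing change of DDIT3 was 0.61 ± 0.29 in untreated cells, 0.51 ± 0.29 at 8 h and 0.49 ± 0.29 at 24 h, none of them called (adjusted p = 0.273, 0.314 and 0.451), and the mean rose by 0.54 ± 0.17 (adjusted p = 0.0269). Without replicate 1 the same mean was 0.73 ± 0.06 and each condition was called. The call of the mean was lost without siPKCiz untreated replicate 1 (0.47), siControl untreated replicate 2 (0.48) or 3 (0.47), siPKCiz 8 h replicate 2 (0.51) or 3 (0.45), or siPKCiz 24 h replicate 2 (0.52) or 3 (0.52), and without replicate number 2 (0.50) or 3 (0.40).

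CHAC1 showed the widest range of the 10, with 712, 392 and 403 in untreated siPKCiz cells, against 821, 231 and 207 in untreated siControl cells. At 8 h it had 142, 371 and 399 in siPKCiz cells and 169, 233 and 203 in siControl cells. At 24 h it had 149, 279 and 292 in siPKCiz cells and 159.8, 154 and 167 in siControl cells. Replicate 1 of untreated siControl was 1.91 log2 units above the mean of replicates 2 and 3, and replicate 1 of untreated siPKCiz was 0.84 above. With all arrays CHAC1 passed in no comparison: the mean silencing change was 0.50 ± 0.25 (adjusted p = 0.176), and the change at 24 h of TGFβ was -1.07 ± 0.43 in siPKCiz cells and -1.09 ± 0.43 in siControl cells (adjusted p = 0.134 and 0.121). Without replicate 1, CHAC1 rose with silencing in untreated cells, at 8 h and at 24 h, by 0.84 ± 0.06 as the mean, a 1.79-fold higher level. It also fell at 24 h of TGFβ without replicate 1, by 0.48 in siPKCiz cells (adjusted p = 0.00398) and by 0.45 in siControl cells (adjusted p = 0.00361). DDIT3 was the gene ranked 4 of all genes by likeness to CHAC1 over the 18 arrays, with a root mean square difference of the centred log2 values of 0.34 where the median gene had 0.75. This pair was singled out after its values were seen.

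**Figure D2:**
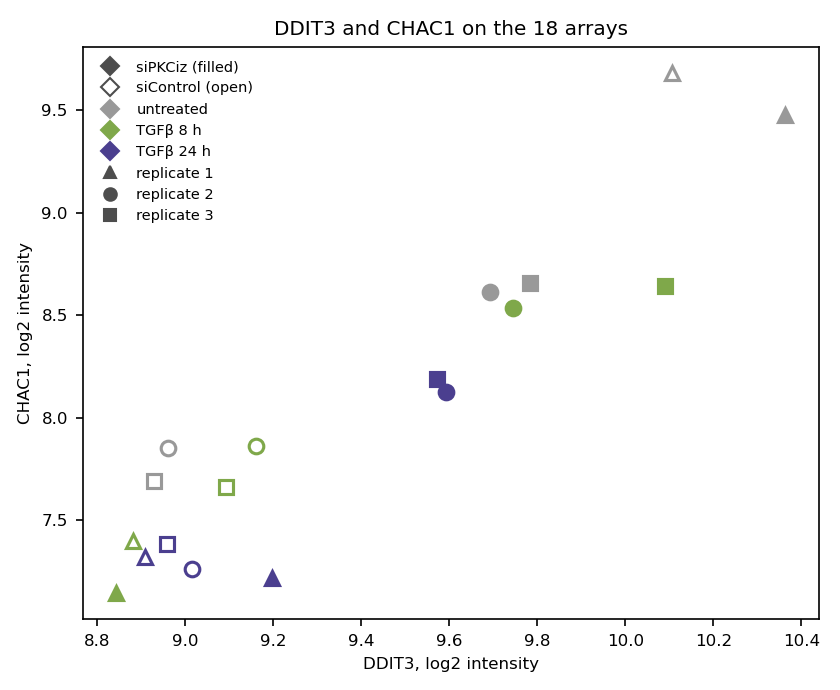
Log2 intensity of DDIT3 (x axis) and CHAC1 (y axis) on the 18 arrays, filled for siPKCiz and open for siControl, coloured by treatment and shaped by replicate number. Both untreated arrays of replicate 1 sit at the upper right, and the other siControl arrays at the lower left with replicate 1 of siPKCiz at 8 h and 24 h.

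TRIB3, a pseudokinase that restrains ATF4 and AKT, was the 1 member whose mean silencing change was called neither with all arrays nor without replicate 1. Untreated siPKCiz cells had 1315, 1045 and 1050.3, and untreated siControl cells had 1275, 856 and 1043. At 8 h TRIB3 read 741, 1002 and 948 in siPKCiz cells and 683, 768 and 629 in siControl cells. At 24 h they were 728, 1157 and 676 in siPKCiz cells and 764, 893 and 709.5 in siControl cells. The arrays of the arms overlapped in all 3 conditions. TRIB3 fell by 0.60 ± 0.18 at 8 h of TGFβ in siControl cells (adjusted p = 0.038), where PSAT1 and PHGDH also fell, 3 of 10 where 6.18% of all genes fell and 5.17% rose. The TRIB3 call was lost without replicate 1 (-0.44, adjusted p = 0.125) or 3 (-0.53), and with any of 4 arrays left out singly: siControl untreated replicate 1 (-0.45) or 3 (-0.60) and siControl 8 h replicate 1 (-0.59) or 3 (-0.53). At 24 h its change was -0.45 ± 0.18 in siPKCiz cells and -0.41 ± 0.18 in siControl cells, neither called (adjusted p = 0.132 and 0.168), and without replicate 1 these changes were -0.24 and -0.25.

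The serine synthesis enzymes PSAT1 and PHGDH fell at 24 h of TGFβ in both arms, with and without replicate 1. PSAT1, which makes phosphoserine from phosphohydroxypyruvate, had 3381, 3388 and 3862 in untreated siPKCiz cells, 2856, 3369.9 and 3037 at 8 h and 1959, 2239 and 2427 at 24 h. In siControl cells it had 3544, 2883 and 2889 untreated, 2492, 2354 and 2182 at 8 h and 2120.1, 2035 and 1983 at 24 h. All 24 h arrays of an arm lay below all its 8 h arrays, and these below all untreated arrays. From 8 h to 24 h a separation downwards was seen for 10.5% of all genes in siPKCiz cells and 8.29% in siControl cells. PSAT1 fell by 0.68 ± 0.10 at 24 h in siPKCiz cells (adjusted p = 0.000139) and by 0.60 ± 0.10 in siControl cells (adjusted p = 0.000445), levels 1.61-fold and 1.51-fold lower than untreated. Both calls stayed with any single array and with any replicate number left out, at -0.63 and -0.52 without replicate 1. At 8 h PSAT1 fell by 0.40 ± 0.10 in siControl cells (adjusted p = 0.0115), and the change in siPKCiz cells was -0.20 ± 0.10 (adjusted p = 0.313). The siControl call at 8 h stood without replicate 1 (-0.35) but was lost without siControl untreated replicate 1 alone (-0.30) or siControl 8 h replicate 3 (-0.35). It was also lost without replicate number 2 (-0.46) or 3 (-0.40). Between 8 h and 24 h PSAT1 fell by 0.49 ± 0.10 in siPKCiz cells (adjusted p = 0.0268), the 1 member called there, where 0.419% of all genes fell and 0.386% rose. That call was lost without siPKCiz 24 h replicate 1 (-0.40) or 2 (-0.50) or siPKCiz 8 h replicate 2 (-0.42) or 3 (-0.50). It was also lost without replicate number 2 (-0.43) or 3 (-0.57). In siControl cells 0 of 10 members were called between 8 h and 24 h, where 2.41% of all genes were (1.31% rose, 1.1% fell). In limma 3 of 10 had an unadjusted p under 0.05 there, as did 2501 of the 18377 genes. Without replicate 1 the members that fell from 8 h to 24 h were PSAT1 and CHAC1 in siPKCiz cells, where 0.887% of genes fell, and NUPR1 and CHAC1 in siControl cells, where 1.3% did.

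PHGDH, the first enzyme of serine synthesis from glycolysis, had 2475, 2275 and 2350.4 in untreated siPKCiz cells, 1960.1, 1902 and 1743 at 8 h and 1191, 1889 and 1522 at 24 h. In siControl cells it had 2243, 2052 and 2249.5 untreated, 1865, 1612 and 1393 at 8 h and 1403, 1495 and 1456 at 24 h. In each arm every TGFβ array was below every untreated array, and the 8 h and 24 h arrays overlapped. PHGDH fell by 0.65 ± 0.13 at 24 h in siPKCiz cells (adjusted p = 0.00211) and by 0.59 ± 0.13 in siControl cells (adjusted p = 0.00391), and both calls stayed with any single array left out but were lost without replicate 3 (-0.66 and -0.57). Leaving out replicate 1 gave -0.45 in siPKCiz cells and -0.54 in siControl cells, both called. At 8 h it fell by 0.44 ± 0.13 in siControl cells (adjusted p = 0.031), and the change in siPKCiz cells was -0.34 ± 0.13 (adjusted p = 0.134). The siControl call at 8 h stood without replicate 1 (-0.52) but was lost without siControl untreated replicate 1 alone (-0.41) or 3 (-0.41) or siControl 8 h replicate 2 (-0.44) or 3 (-0.33). It was also lost without replicate number 2 (-0.48) or 3 (-0.31).

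ASNS, asparagine synthetase, is the classic target gene of the amino acid response, which acts on it through a composite C/EBP-ATF site in its promoter. The 250 bases before the start sites of ASNS and CHAC1 (GRCh38.p14, RefSeq, 5′ to 3′) are shown because they hold a match to TGATGNAA, the letters of that composite site, and the match is in capitals. The ASNS window shown, 1 of 2 for this gene, is chr7:97872409-97872658, minus strand, with the match 68 bases upstream.
ASNS promoter: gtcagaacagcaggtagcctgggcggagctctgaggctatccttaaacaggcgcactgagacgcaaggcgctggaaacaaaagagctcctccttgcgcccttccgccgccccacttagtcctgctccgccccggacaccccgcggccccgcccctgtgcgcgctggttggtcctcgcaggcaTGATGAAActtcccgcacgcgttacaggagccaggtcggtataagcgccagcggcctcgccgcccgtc
CHAC1 promoter: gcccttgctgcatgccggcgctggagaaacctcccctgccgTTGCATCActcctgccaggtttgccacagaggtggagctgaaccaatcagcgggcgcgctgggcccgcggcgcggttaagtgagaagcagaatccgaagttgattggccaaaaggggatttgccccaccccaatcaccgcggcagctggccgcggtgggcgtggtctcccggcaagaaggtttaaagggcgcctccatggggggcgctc
The CHAC1 window is chr15:40953221-40953470, plus strand, and its match lies 209 bases upstream and reads on the opposite strand. A match in these letters is a description of the window and says nothing of binding. Searched on both strands, TGATGNAA was found in 3.14% of 35116 such windows. Of the 9 members with a window it was found in ASNS and CHAC1. This counts genes and not windows: ASNS had 2 windows, 1 of them with the match, DDIT3 and CEBPB had 2 each and TRIB3 had 3. The letters are those of the ASNS site, so the ASNS match was set by that choice and tests nothing. The UPR element TGACGTGG was in 0.612% of windows and in 0 of the 9 members.

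The ASNS level was 829, 898 and 916 in untreated siPKCiz cells, 767, 891 and 849 at 8 h and 497, 651 and 704 at 24 h. In siControl cells it was 983, 642 and 599 untreated, 725, 643 and 612 at 8 h and 493, 498 and 573 at 24 h. Replicate 1 of untreated siControl was 0.66 log2 units above the mean of the other two. With TGFβ at 24 h ASNS fell by 0.53 ± 0.15 in siPKCiz cells (adjusted p = 0.0296) and by 0.48 ± 0.15 in siControl cells (adjusted p = 0.0467), and at 8 h the changes were -0.08 and -0.13, neither called. Leaving out replicate 1 kept the 24 h call in siPKCiz cells (-0.42, adjusted p = 0.00729) and lost it in siControl cells (-0.21, adjusted p = 0.143). The siPKCiz call was lost without siPKCiz untreated replicate 1 (-0.57), 2 (-0.51) or 3 (-0.50) or siPKCiz 24 h replicate 1 (-0.38). The siControl call stood in 6 of 18 single leave-outs and moved to -0.25 (adjusted p = 0.266) without siControl untreated replicate 1. Without replicate number 2 or 3 the 24 h call was lost in siPKCiz cells (-0.56 and -0.60) and in siControl cells (-0.53 and -0.68). With silencing, the mean of ASNS rose by 0.29 ± 0.09 (adjusted p = 0.0271), and by 0.45 ± 0.05 without replicate 1. That call stood in 11 of 18 single leave-outs, with losses at adjusted p from 0.0523 to 0.0615: siControl untreated replicate 2 or 3, siPKCiz untreated replicate 3, siControl 8 h replicate 3, siPKCiz 8 h replicate 2, and siPKCiz 24 h replicate 2 or 3. It was also lost without replicate number 2 (0.21) or 3 (0.20). For PSAT1 the silencing mean was 0.23 ± 0.06 (adjusted p = 0.00773), a 1.17-fold higher level, and 0.35 ± 0.05 without replicate 1. The mean was not called without replicate 2 (0.20) or 3 (0.15). At 8 h PSAT1 rose by 0.40 ± 0.10 (adjusted p = 0.0272), a call lost without siPKCiz 8 h replicate 2 (0.33) or 3 (0.41) or siControl 8 h replicate 2 (0.40) or 3 (0.35). It was also lost without replicate number 2 (0.34) or 3 (0.36). PHGDH changed with silencing by 0.13 ± 0.07 as the mean (adjusted p = 0.236), and without replicate 1 it rose by 0.20 ± 0.06 (adjusted p = 0.0269).

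**Figure D3:**
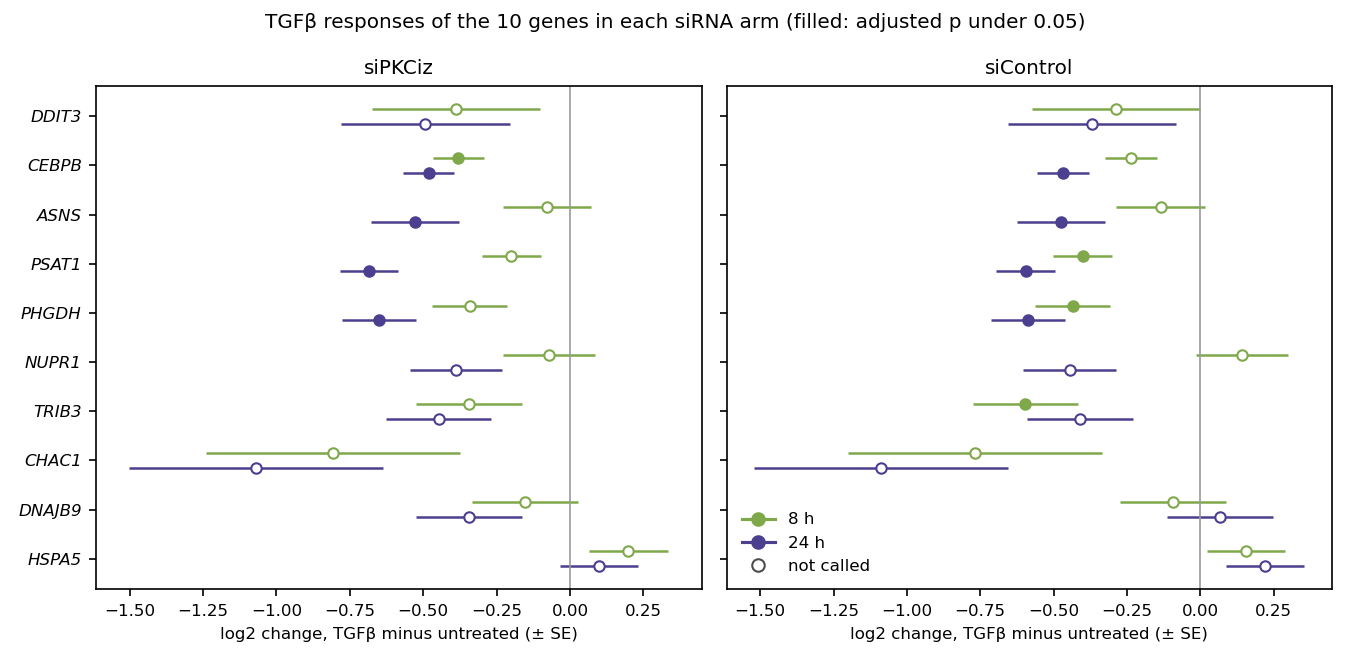
Log2 change after TGFβ against untreated cells of the same arm (x axis, bars are the standard error) for siPKCiz (left) and siControl (right), green at 8 h and violet at 24 h, with filled points for an adjusted p under 0.05. CEBPB, ASNS, PSAT1 and PHGDH are filled at 24 h in both panels, and CHAC1 has the widest bars, with standard errors of 0.43.

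HSPA5 (BiP), the main ER chaperone of the HSP70 family, and DNAJB9, its J-domain partner, passed in no comparison with all arrays. The HSPA5 window is shown because it holds the ER stress element, and it lies on chr9:125241344-125241593, minus strand, with the match to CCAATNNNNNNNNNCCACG in capitals, 66 bases upstream.
HSPA5 promoter: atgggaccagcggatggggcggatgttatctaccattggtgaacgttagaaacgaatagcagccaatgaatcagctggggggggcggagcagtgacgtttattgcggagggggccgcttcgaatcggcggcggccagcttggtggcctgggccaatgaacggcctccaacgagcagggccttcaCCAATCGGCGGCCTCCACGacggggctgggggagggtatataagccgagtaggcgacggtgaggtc
This spacing was found in 26 of all windows (0.074%), and HSPA5 was the 1 member among them. The window is shown for its match, so that share is no test of it. HSPA5 ranged from 6375 to 10707 over the 18 arrays and DNAJB9 from 625 to 1135. The TGFβ changes of HSPA5 were 0.20 ± 0.13 at 8 h and 0.10 ± 0.13 at 24 h in siPKCiz cells. In siControl cells they were 0.16 ± 0.13 and 0.22 ± 0.13, and none was called in either arm. Without replicate 1 they were 0.24 and 0.02 in siPKCiz cells and 0.23 and 0.32 in siControl cells. DNAJB9 group means were 9.95 untreated, 9.80 at 8 h and 9.61 at 24 h in siPKCiz cells. In siControl cells these means were 9.67, 9.58 and 9.74. With silencing the mean change was 0.17 ± 0.08 for HSPA5 (adjusted p = 0.142) and 0.12 ± 0.10 for DNAJB9 (adjusted p = 0.43). Without replicate 1 both rose, HSPA5 by 0.31 ± 0.07 (adjusted p = 0.00271) and DNAJB9 by 0.31 ± 0.05 (adjusted p = 0.000501).

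By condition, 2 of 10 members rose with silencing in untreated cells (CEBPB and NUPR1) where 2.12% of all genes did, 2 at 8 h (NUPR1 and PSAT1) where 3.52% did, and 2 at 24 h (CEBPB and NUPR1) where 1.51% did. Of the 10, 0 fell with silencing in limma, where 1.45%, 1.9% and 1.68% of all genes did. Without replicate 1 the counts were 8 where 4.43% of genes rose, 7 where 12.2% did and 5 where 5.63% did. The median member change was 0.28 in untreated cells, 0.35 at 8 h and 0.17 at 24 h, beside medians over all genes of -0.0005, -0.0077 and 0.0034, and without replicate 1 it was 0.41, 0.48 and 0.28. For TGFβ the median member change was -0.27 at 8 h and -0.49 at 24 h in siPKCiz cells and -0.26 and -0.46 in siControl cells, with every median over all genes within 0.01 of 0. These TGFβ medians were nearer 0 without replicate 1, at -0.07 and -0.30 in siPKCiz cells and 0.003 and -0.23 in siControl cells. At 8 h in siPKCiz cells 1 of 10 fell, where 3.35% of all genes did and 3.13% rose, and CEBPB was again the 1 that fell without replicate 1, where 3.17% of genes fell. Without replicate 1, 5 of 10 fell at 24 h of TGFβ in siPKCiz cells, where 5.48% of genes fell, and 4 of 10 in siControl cells, where 8.99% did. The 4 in siControl cells were CEBPB, PSAT1, PHGDH and CHAC1, and the 5 in siPKCiz cells were the same and ASNS. At 8 h without replicate 1 NUPR1 rose in siControl cells by 0.40 ± 0.11 (adjusted p = 0.0219), where 5.71% of genes rose, and PSAT1 and PHGDH fell, where 10.2% did.

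**Figure D4:**
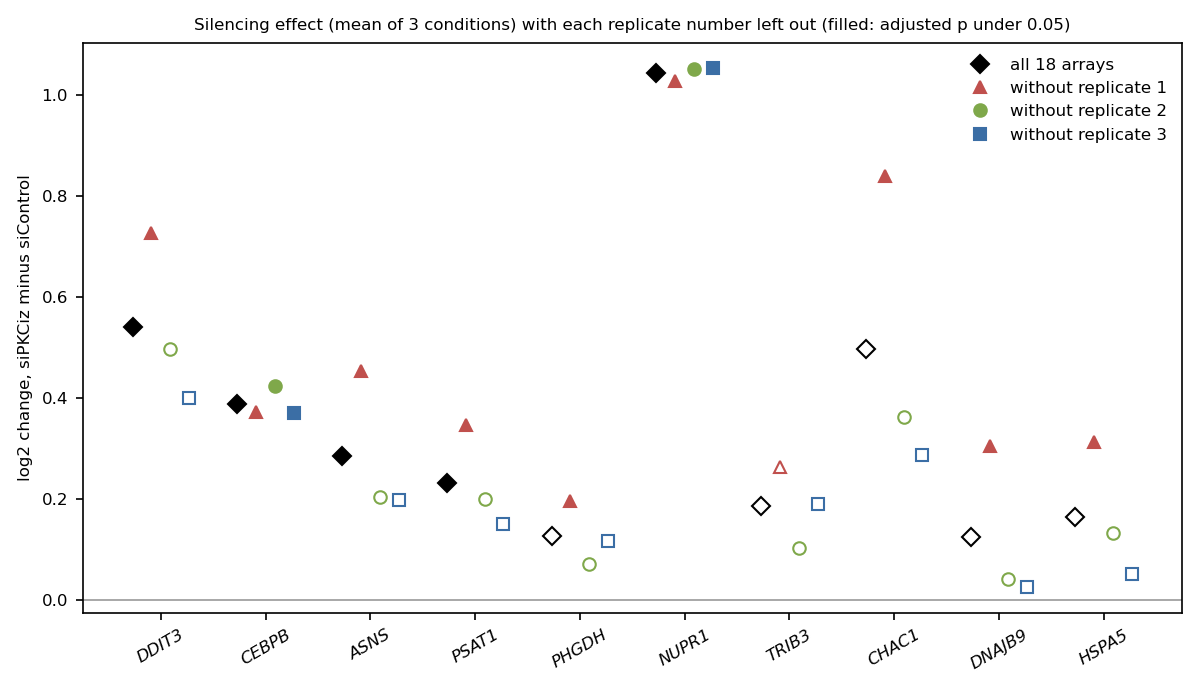
Silencing effect as the mean of the 3 conditions (log2 change, y axis) for each gene with all 18 arrays (diamonds) and without replicate 1 (triangles), 2 (circles) or 3 (squares), filled where the adjusted p is under 0.05. NUPR1 stays near 1.04 and CEBPB between 0.37 and 0.42, while CHAC1 spans 0.29 to 0.84.

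Whether silencing altered the TGFβ response was tested by the interaction of siRNA and TGFβ. In limma 0 of 18377 genes passed at 8 h or at 24 h, with 625 and 705 at an unadjusted p under 0.05, and of the 10 members 0 did so at either time. Without replicate 1, 58 and 80 genes passed, 0.316% and 0.435%, and again 0 members. The interaction was 0.20 (95% interval -0.09 to 0.50) at 8 h and -0.09 (-0.39 to 0.21) at 24 h for PSAT1. For NUPR1 it was -0.21 (-0.68 to 0.25) and 0.06 (-0.41 to 0.52), and without replicate 1 it was -0.48 ± 0.16 at 8 h (adjusted p = 0.375 in limma). For CEBPB it was -0.14 (-0.40 to 0.12) and -0.01 (-0.27 to 0.25). For CHAC1 it was -0.04 (-1.33 to 1.24) and 0.02 (-1.27 to 1.30). Over all 10 members the interaction ran from -0.21 to 0.25 at 8 h and from -0.41 to 0.06 at 24 h.

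The rest of the pathway was read through 9 lists with 141 of 150 genes measured. Their silencing counts stand beside 11.8% of all genes that rose and 8.17% that fell, and a list share near these values is not a result about the list. Whether the list calls hold without replicate 2 or 3 was not tested. Among ATF4 itself and the eIF2 machinery, silencing raised 4 of 21 and lowered 2, shares near those of all genes; the largest changes were those of OMA1, the mitochondrial protease that relays stress to eIF2 (0.44 ± 0.07), EIF2S2 (0.23 ± 0.05) and GCN1 (0.21 ± 0.05). ATF4 mRNA was called in none of the 12 comparisons, with a mean silencing change of 0.06 ± 0.07 (adjusted p = 0.593), or 0.13 without replicate 1 (adjusted p = 0.134). Of 18 ATF4 partners and stress effectors, 3 rose and 1 fell, again near the shares of all genes. GDF15, a stress-induced cytokine, rose by 0.95 ± 0.18 (1.33 without replicate 1), JDP2 rose by 0.30 ± 0.07, and TNFRSF10B, the death receptor that CHOP can induce, fell by 0.45 ± 0.06 (adjusted p = 5.29e-05). Serine, glycine and one-carbon enzymes rose in 5 of 9, with MTHFD2, the mitochondrial folate enzyme, at 0.74 ± 0.11, MTHFD1 at 0.38 ± 0.06 and ALDH1L2 at 0.36 ± 0.08, and none fell. Other amino acid synthesis enzymes rose in 6 of 12 and fell in none, led by CTH, which makes cysteine (0.60 ± 0.11), BCAT2 (0.38 ± 0.12, and 0.58 without replicate 1) and GOT1 (0.35 ± 0.06).

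Of 15 amino acid transporters 5 rose and 2 fell with silencing, among them the cystine transporter SLC7A11 (0.27 ± 0.07), SLC1A5 (0.26 ± 0.05) and SLC3A2 (0.24 ± 0.06). Of 20 genes of cytosolic tRNA charging 6 rose, VARS1 by 0.44 ± 0.05 and the tRNA exporter XPOT by 0.25 ± 0.07, and 1 fell, NARS1, by 0.27 ± 0.07 (-0.42 without replicate 1). Of 19 ER chaperones and folding enzymes 6 rose and 0 fell, CRELD2 by 0.36 ± 0.06, P4HB by 0.29 ± 0.05 and HYOU1 by 0.22 ± 0.07 (0.37 without replicate 1). The sensors and factors of the unfolded protein response had 2 of 9 higher and 1 lower. ER associated degradation and traffic had 1 of 18 higher (EDEM2, 0.26 ± 0.05) and 2 lower (SEL1L, -0.27 ± 0.05, and SERP1, -0.15 ± 0.05). The list medians lay between -0.0081 for the eIF2 machinery and 0.20 for the serine and one-carbon enzymes, beside -0.0070 over all genes. Without replicate 1, a fit chosen for the lists after the data were seen, 18.9% of all genes rose and 12.5% fell. The list counts that rose were then 5 of 21, 5 of 18, 7 of 9, 6 of 12, 6 of 15, 9 of 20, 7 of 19, 4 of 9 and 4 of 18, in the order eIF2 machinery, ATF4 partners, serine enzymes, other synthesis enzymes, transporters, tRNA charging, chaperones, sensors and degradation. The counts that fell were 4, 1, 0, 0, 2, 1, 0, 2 and 2 in the same order. Markers of epithelium moved with silencing too: 3 of 11 rose (EPCAM 0.76, or 1.14 without replicate 1, CDH1 0.49, KRT19 0.25). The summed intensity of the 11 ran from 48515 to 57720 in untreated siPKCiz cells and from 43011 to 60061 in untreated siControl cells. Among 6 fibroblast markers LUM rose by 0.55 ± 0.08. Without replicate 1, 2 of these 6 rose and 0 fell, with a list median of 0.0092. Of 6 endothelial markers 0 rose and 1 fell in that fit. The part of the markers in the stress gene results was not tested.

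**Figure D5:**
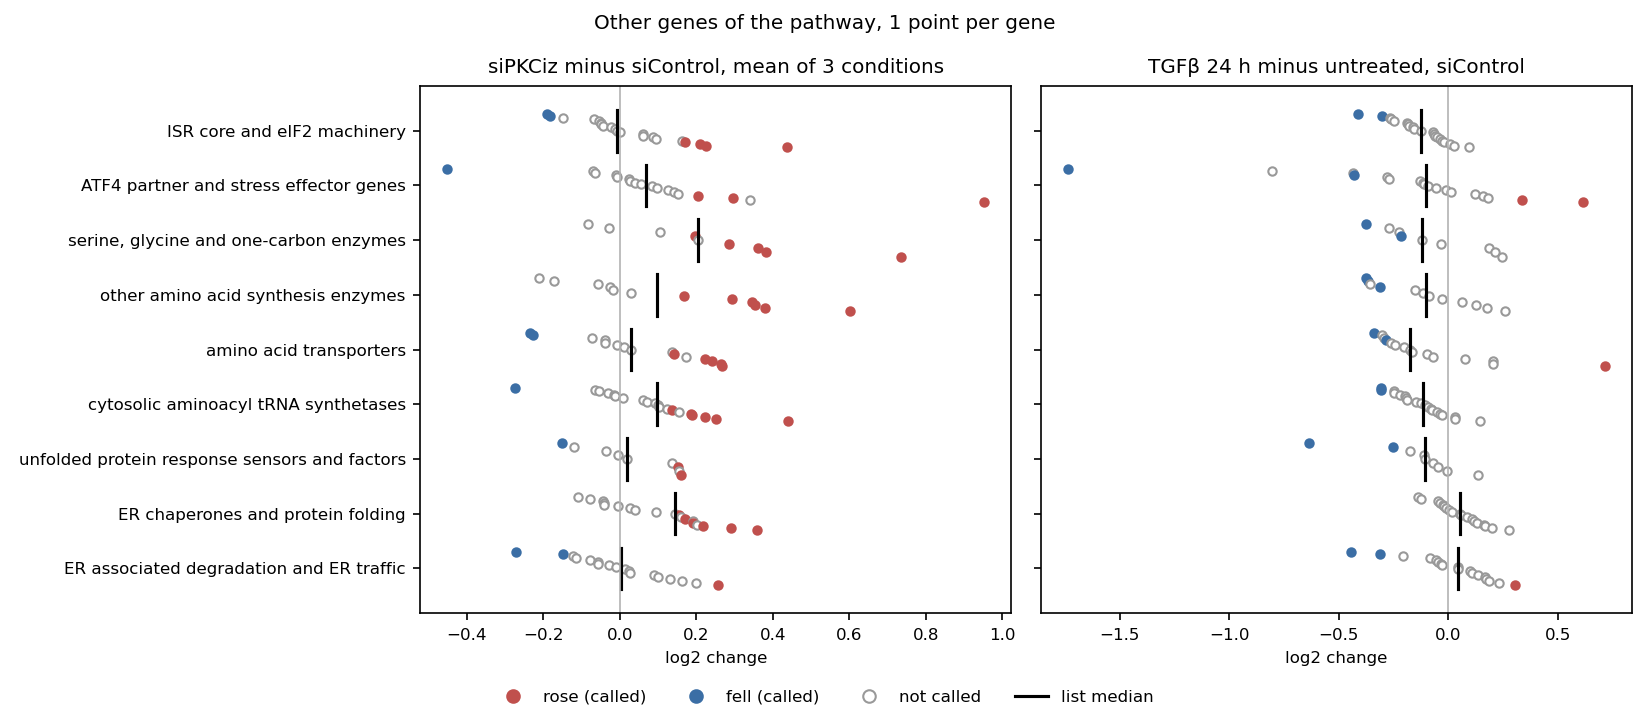
Log2 change (x axis) of each measured gene of the 9 pathway lists for silencing as the mean of the 3 conditions (left) and for TGFβ at 24 h in siControl cells (right), red for a gene that rose, blue for one that fell and open for one not called, with the list median as a line. The serine and one-carbon enzymes have the list median farthest right on the left side, at 0.20.

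At 24 h of TGFβ in siControl cells 2 of the 9 serine and one-carbon enzymes fell and none rose, where 6.46% of all genes fell and 5.85% rose. PSPH, the last enzyme of serine synthesis, fell by 0.37 ± 0.08 and SHMT2 fell by 0.22 ± 0.07. The SHMT2 call was lost without replicate 1 (-0.17). Other synthesis enzymes fell in 3 of 12 (GOT1 by 0.37, ASS1 by 0.37 and PYCR1 by 0.31) and rose in none. The transporters moved apart: the arginine carrier SLC7A1 rose by 0.72 ± 0.10, while SLC7A5 fell by 0.34 ± 0.08 and SLC6A9 by 0.28 ± 0.08. Among ATF4 partners GDF15 fell by 1.74 ± 0.32, a value of -1.69 without replicate 1, CEBPD fell by 0.43 ± 0.13 and KLHL24 rose by 0.61 ± 0.11. FARSB and IARS1, both falling by 0.31, were the 2 of 20 tRNA charging genes called, and neither was called without replicate 1 (-0.28 and -0.23). ERN1, which encodes the sensor IRE1, fell by 0.64 ± 0.13 (-0.35 without replicate 1). MBTPS2, at -0.25 ± 0.08, was not called without replicate 1 (-0.16). Of the ER chaperones 0 of 19 were called. WFS1 (-0.44), EDEM2 (-0.31) and EDEM1 (0.30) were called among 18 ER degradation and traffic genes, EDEM1 not without replicate 1 (0.17). In siPKCiz cells at 24 h GDF15 fell by 1.81 ± 0.32, PSPH by 0.36 ± 0.08 and ERN1 by 0.73 ± 0.13. The PSPH call was lost there without replicate 1 (-0.31, adjusted p = 0.0599). The epithelial markers CDH1 (-1.62), EPCAM (-1.23) and KRT19 (-1.07) fell in the same siControl comparison, 4 of 11 in all, with summed intensity from 39080 to 46180 at 24 h and 43011 to 60061 untreated, and their part in these changes was not tested.

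The genes most like each called member over the 18 arrays were found by the root mean square difference of the centred log2 values. For DDIT3 these were STC2 (0.24) and PHYHIPL (0.24), where the median gene stood at 0.50. For CEBPB they were UCP2 (0.093) and BLVRB (0.11), with a median gene at 0.32. For NUPR1 they were WDTC1 (0.28) and HCN2 (0.28), with a median gene at 0.61. TRIB3 was nearest RIMKLA (0.16) and MAST4 (0.16), and ASNS was nearest PSAT1 (0.14), a member, and EIF2S2 (0.15). PSAT1 was nearest ACOX2 (0.089) and FLOT1 (0.095), and PHGDH was nearest PIMREG and ENTPD6 (0.12).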

How the data were processed

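RNA of 18 A549 cultures was labelled (200 ng each) and hybridised to Affymetrix whole-transcript arrays, per the labels. The authors deposited linear intensity, from 21.2 to 51230 with array medians from 156.1 to 160.7. RMA and Partek are named in the submitters' processing notes, and versions and genome build are not given in the sources used here. RMA background and quantile steps compress folds of dim genes.

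Of 28869 probe sets 19310 carried 1 symbol, and the brightest per symbol was kept (18377 genes); 1752 with several symbols and 7807 with none were left out. Symbols matched RefSeq for 179 of the 179 listed genes that were measured, and 10 listed symbols had no probe set carrying that symbol alone. Log2 values were fitted with limma 3.58.1 in R 4.3.3 as 6 group means (12 residual degrees of freedom, trend and robust off), with Benjamini-Hochberg adjustment per comparison over all genes and a threshold of 0.05. The fit was tested on simulated data with known changes. Precision is limited by having 3 arrays in each group.

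The members and lists were chosen with earlier results of these data known. Named were the 10 members, PRKCI and PRKCZ, up to 3 called genes per list with the largest change, and the 2 genes most like each called member, besides marker genes and ATF4. Alternatives were a replicate block, a dim-gene filter, quantile normalization, median centring, trended robust moderation, array weights, only the compared groups, all probe sets, and left-out arrays.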

Additional observations from a re-analysis of the deposited data

How the results depend on the processing

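No member change that was called turned its direction under any alternative. Of 24 called member results, the replicate block kept 20, the dim-gene filter 24, quantile normalization 19, median centring 23, trended and robust moderation 24, array weights 23, the compared groups alone 21 and all probe sets 24. Array weights added 14 calls. With a replicate number left out from all groups, 22, 9 and 5 of the 24 stayed called without replicate 1, 2 and 3, and with single arrays left out 13 of 24 stayed in all 18 fits. Over both arms together the replicate numbers did not pair the arrays: the median correlation of deviations from group means was -0.28, 0.0033 and -0.058 for shared numbers 1, 2 and 3 against 0.067 for mixed numbers, and 0 of 18 arrays correlated best with an array of their own number. Within siPKCiz cells the shared-number pairs were at -0.0012, -0.11 and 0.17 (replicate 1), 0.095, 0.012 and 0.067 (2) and 0.21, 0.092 and 0.26 (3). Within siControl cells they were mixed in sign, at -0.33, -0.072 and 0.14 (replicate 1), 0.0089, 0.084 and -0.20 (2) and -0.19, -0.10 and 0.17 (3). Between the arms, replicate 1 of the same condition was at 0.019 untreated, -0.28 at 8 h and -0.33 at 24 h. The numbers are therefore not free of structure. The block left 0 members called for 24 h minus 8 h in siPKCiz cells and 1 for silencing at 8 h, and it lowered the count of all genes to 77 and 262 for 24 h minus 8 h in siPKCiz and siControl cells and to 616 and 380 for silencing at 8 h and 24 h. It lost ASNS at 24 h in siPKCiz (adjusted p = 0.0526) and siControl cells (adjusted p = 0.0759), PSAT1 for 24 h minus 8 h (adjusted p = 0.0589) and PSAT1 for silencing at 8 h (adjusted p = 0.0532).

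Counts of members called moved to 2 (8 h, siPKCiz), 1 (24 h minus 8 h, siControl), 7 (silencing, untreated), 4 (silencing, 8 h) and 9 (mean silencing) with array weights. They moved to 2 (8 h, siPKCiz), 0 (24 h minus 8 h, siPKCiz), 1 (24 h minus 8 h, siControl) and 1 (silencing, 24 h) with only the compared groups, to 1 (24 h minus 8 h, siControl) with the dim-gene filter and to 3 (mean silencing) with quantile normalization, which lost DDIT3 (adjusted p = 0.0516) and ASNS (adjusted p = 0.0727). Over all left-out fits the counts ranged from 0 to 1 (8 h, siPKCiz), 2 to 5 (24 h, siPKCiz), 0 to 3 (8 h, siControl), 1 to 5 (24 h, siControl), 0 to 2 (24 h minus 8 h, either arm), 0 to 8, 0 to 7 and 0 to 5 (silencing in untreated cells, at 8 h and at 24 h), 2 to 9 (mean silencing) and 0 to 0 (both interactions). All genes called rose with array weights to 1871 (8 h, siPKCiz), 388 (24 h minus 8 h, siPKCiz), 3485 and 3483 (8 h and 24 h, siControl), 2956, 2929 and 1228 (silencing in untreated cells, at 8 h and at 24 h), 5987 (mean silencing) and 1 (interaction at 24 h). With only the compared groups they were 27 and 211 (24 h minus 8 h, siPKCiz and siControl), 229 (silencing, 24 h) and 2 (interaction, 8 h). Without replicate 1, 2 or 3 the mean silencing count of all genes lay between 837 and 5774. Causes of these shifts were not tested.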

Other observations

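Between 8 h and 24 h of TGFβ, MTHFD1L, a mitochondrial one-carbon enzyme, fell by 0.49 ± 0.09 and the transporter SLC1A4 by 0.61 ± 0.12 in siPKCiz cells. In siControl cells MTHFD1L fell by 0.51 ± 0.09 over the same interval, and ASS1, which makes argininosuccinate, fell by 0.60 ± 0.08. The transporters SLC1A4 (-0.47), SLC7A5 (-0.41) and SLC1A5 (-0.36) fell there too, 3 of 15 measured where 1.1% of all genes fell. These calls were lost without replicate 1: MTHFD1L in siPKCiz cells (-0.37), and SLC1A4 (-0.42) and SLC1A5 (-0.31) in siControl cells. At 8 h against untreated siControl cells MTHFD1L rose by 0.48 ± 0.09 and EIF4EBP1, a translation repressor and ATF4 target, rose by 0.44 ± 0.09, while GDF15 fell by 1.59 ± 0.32.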
